A study of Mus musculus with 10 samples.

Results

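The synaptonemal complex and its HORMA-domain partners were followed through 10 genes: Sycp1, Sycp2, Sycp3, Syce1, Syce2, Syce3, Tex12, Hormad1, Hormad2 and Trip13. The genes were chosen by name, for the protein each encodes, with earlier results of these data known. All 10 were found among the 28125 genes of the scRNA-seq matrix and among the 30657 nuclear genes of the scATAC-seq matrix, and each was read in all 13 cell populations. The nuclei are those of whole testes, taken from wild-type C57BL/6J mice at 3 juvenile ages (11, 17 and 25 dpp) and from adults of 8 weeks that were either Cre/+ or Nfya-CKO. In Nfya-CKO males, a Stra8-driven Cre, active in male germ cells from the spermatogonial stage, removes exons 5 and 6 of Nfya, which encodes the DNA-binding subunit of the transcription factor NF-Y. The Cre/+ controls carry the same Cre. scRNA-seq and scATAC-seq were run together on each nucleus, and every condition has 1 library per assay.

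During meiotic prophase I, homologous chromosomes are zipped together by the synaptonemal complex. SYCP2 and SYCP3 build the axis of each chromosome (the lateral element), SYCP1 forms the transverse filaments that bridge the axes, and SYCE1, SYCE2, SYCE3 and TEX12 make up the central element in the middle. HORMAD1 and HORMAD2 mark axes that have not yet synapsed, and TRIP13 is the ATPase that remodels HORMA proteins and helps strip them from synapsed axes. Assembly starts in leptotene and zygotene, is complete in pachytene and is undone in diplotene.

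The values are pooled. Each matrix holds a single value per gene and population, taken over all libraries, so neither a replicate spread nor a test between conditions can be had, and cells are not replicates. RNA is given as unique molecular identifiers (UMIs) of a gene per 10000 UMIs of a nucleus, averaged over the nuclei, with a 95% interval that covers counting error only. Levels are compared between populations for 1 gene at a time, since gene length differs between genes. The populations are undifferentiated and differentiating spermatogonia (undiff. and diff. SpG), preleptotene (pL), early leptotene to zygotene (eL/L/Z) and leptotene to early pachytene (L/Z/eP) spermatocytes, middle and late pachytene (mP/lP) and diplotene (D) spermatocytes, round and elongating spermatids (RS, ES), Sertoli cells, other somatic cells, an unknown group, and SpG of the library labelled Nfya-CKO. They rest on 99 (unknown) to 8107 (L/Z/eP) nuclei in scRNA-seq, and the scATAC-seq nuclei given these names number 54 (unknown) to 5805 (L/Z/eP). The populations were named from clusters of the same RNA, so the place of a gene along them is a description and not a test.

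Population and library go together. The 11 dpp library gave 59.3% of pL nuclei and 87.8% of Sertoli cells, the 25 dpp library gave 93.5% of L/Z/eP and 70.7% of mP/lP nuclei, the Cre/+ library gave 84.5% of diff. SpG and 99.6% of ES, and the library labelled Nfya-CKO gave 78.8% of the other somatic cells, so stage, age and library cannot be told apart. Median depth ran from 1525 UMIs per nucleus in other somatic cells to 18361 in the SpG of the library labelled Nfya-CKO. 12.7% of the scRNA-seq cell barcodes occurred in 2 or more libraries. Nfya RNA was higher, at 1.11 UMIs per 10000 in its SpG, in the library labelled Nfya-CKO (against 0.456 in undiff. SpG and 0.667 in diff. SpG), so this library is called by its label. Whether this RNA lacks exons 5 and 6 cannot be read from 1 value per gene. The paper reports that NFYA protein was depleted in germ cells of Nfya-CKO testes. The library gave 491 SpG and 4633 other somatic nuclei, 4 in eL/L/Z, 4 in D, and 0 in pL, L/Z/eP, mP/lP, RS and ES. Markers of other cells were read in each population. The 3 ES markers summed to 51.3 UMIs per 10000 in ES, to 5.35 in diff. SpG, and to 0.237 in undiff. SpG. The 6 markers of other somatic cells summed to 218 in those cells, to 48.4 in SpG of the library labelled Nfya-CKO, and to 0.318 in undiff. SpG. Not all 6 moved between these SpG. Insl3 (39.8 against 0.0640), Cyp17a1 (7.39 against 0.0207) and Star (1.03 against 0.0728) were higher in the library labelled Nfya-CKO. Acta2 (0.0955 against 0.0846), Myh11 (0.0606 against 0.0483) and Vwf (0.0323 against 0.0278) were close to undiff. SpG. The 4 Sertoli markers summed to 50.03 in Sertoli cells, to 105 in other somatic cells, to 38.8 in ES and to 25.9 in SpG of the library labelled Nfya-CKO, against 3.46 in undiff. SpG and 4.90 in diff. SpG. Most of each sum was Clu, at 34.1, 91.5, 31.3, 22.8, 2.50 and 3.74 in the same order. Sox9 was highest in Sertoli cells, at 10.7, 3.54, 1.90, 0.820, 0.531 and 0.407.

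The upstream sequences of 4 members are shown first, because they share the same 6 letters, CACGTG, a palindromic E-box. Each runs over the 250 bases before the RefSeq start site (GRCm38.p6), 5′ to 3′ on the strand of the gene, with E-boxes in capitals.
Sycp1 promoter, chr3:102936101-102936350, minus strand: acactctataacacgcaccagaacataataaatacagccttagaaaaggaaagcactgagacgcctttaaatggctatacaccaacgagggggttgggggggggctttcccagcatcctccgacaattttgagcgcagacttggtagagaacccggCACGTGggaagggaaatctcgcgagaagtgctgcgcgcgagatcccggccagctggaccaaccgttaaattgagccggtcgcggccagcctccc
Sycp3 promoter, chr10:88459337-88459586, plus strand: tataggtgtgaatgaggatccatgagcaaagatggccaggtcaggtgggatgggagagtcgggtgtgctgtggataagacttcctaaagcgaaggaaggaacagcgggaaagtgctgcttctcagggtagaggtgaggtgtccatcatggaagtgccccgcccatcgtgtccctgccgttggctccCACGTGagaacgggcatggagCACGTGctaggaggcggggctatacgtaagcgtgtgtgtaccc
Tex12 promoter, chr9:50561269-50561518, minus strand: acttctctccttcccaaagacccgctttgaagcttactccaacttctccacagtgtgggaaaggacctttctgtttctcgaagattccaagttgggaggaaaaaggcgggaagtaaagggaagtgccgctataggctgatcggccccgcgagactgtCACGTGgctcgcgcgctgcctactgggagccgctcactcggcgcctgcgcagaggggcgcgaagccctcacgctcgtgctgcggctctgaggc
Hormad1 promoter, chr3:95559427-95559676, plus strand: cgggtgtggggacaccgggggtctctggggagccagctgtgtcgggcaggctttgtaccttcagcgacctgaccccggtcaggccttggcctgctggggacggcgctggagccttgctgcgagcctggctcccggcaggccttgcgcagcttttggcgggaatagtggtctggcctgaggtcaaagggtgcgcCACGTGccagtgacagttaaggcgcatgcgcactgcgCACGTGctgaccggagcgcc

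Promoter windows of 300 bases (250 before and 50 after a start site) were searched for 4 motifs on both strands. In 5 of the 10 members, Sycp1, Sycp3, Syce2, Tex12 and Hormad1, at least 1 window held CACGTG, against 8.09% of the 27025 genes in the table. Sycp3 and Hormad1 held it at 2 places each. In Sycp3 the E-boxes began 64 and 43 bases before the start site, and in Hormad1 57 and 20 bases before it. In Sycp1 and Tex12 the single E-box began 94 and 93 bases before the start site. Syce2 has 2 RefSeq start sites, and only the window of the downstream one held an E-box. The NF-Y letters, CCAAT, were found in 2 of 10 members, Sycp3 and Syce3, against 41.1% of all genes. In Sycp3 they lay after the start site, and in Syce3 they began 68 bases before 1 of its 2 start sites. The letters TCCCGC, as in E2F sites, were found in 5 of 10 members (22.1% of all genes), the same 5 that held CACGTG, and CNCCTCAG in 4, Sycp1, Syce2, Tex12 and Hormad2 (9.12% of all genes). No motif overlapped another in the capitals shown. CpG dinucleotides numbered 5 to 34 per member window with a median of 19, against a median of 7 over all 32851 windows. These matches describe letters only and do not show where NFYA binds. The paper mapped NFYA binding by CUT&RUN over a wider region around start sites. It names Sycp2, which held no CCAAT here, and Syce3 among NFYA-bound genes with reduced promoter accessibility in Nfya-CKO SpG.

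The 10 members lie on 9 chromosomes, with Sycp1 (chr3:102818499-102936100) and Hormad1 (chr3:95559677-95587863) on the same one. Sycp2 lies at chr2:178345295-178407776, Sycp3 at chr10:88459587-88473236, and Hormad2 at chr11:4345801-4441198. The central element genes lie at chr7:140777229-140787854 (Syce1), chr8:84872111-84887446 (Syce2), chr15:89390174-89410503 (Syce3) and chr9:50557148-50561268 (Tex12), and Trip13 at chr13:73912450-73937795. In RefSeq, 4 members overlap a gene of the opposite strand: Sycp3 with Chpt1, Syce2 with Gcdh, Tex12 with Il18, and Hormad1 with the noncoding Gm40097. Whether the counting used strand is not given in the sources used here, so reads of these pairs may not be told apart.

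RNA of 8 members was highest in the spermatocytes in which the complex is built or complete. Among the 9 control germ cell populations, 5 members (Sycp1, Sycp2, Syce3, Hormad1 and Hormad2) had their highest value in L/Z/eP, and 3 (Sycp3, Syce1 and Tex12) in mP/lP. For Syce3 the interval in L/Z/eP (1.07 to 1.19) overlapped that in ES (0.862 to 1.11), so its highest population was not resolved. Nor was it for Hormad2 and Tex12, whose intervals in L/Z/eP and mP/lP overlapped, or for Syce2, whose intervals in pL and eL/L/Z did. Of all 9548 genes with at least 0.5 UMIs per 10000 in some germ cell population, L/Z/eP was the highest population for 5.48% and mP/lP for 13.7%. Syce2 and Trip13 were highest in pL, as were 19.4% of those genes. Between undiff. SpG and L/Z/eP, 7 of 10 members were at least 2-fold higher (on the log2 scale of value + 0.1) and 1, Trip13, at least 2-fold lower, against 12.8% and 15.2% of the 14089 genes with a mean of at least 0.05. The median log2 ratio was 1.58 over the members and -0.07 over all those genes. On the same scale, no member was 2-fold apart at 4 of the 8 steps between neighbours. These were diff. SpG to pL (1.42% of genes higher and 12.1% lower), L/Z/eP to mP/lP (1.57% and 4.03%), mP/lP to D (5.42% and 0.202%) and RS to ES (10% and 11.3%).

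**Figure D1:**
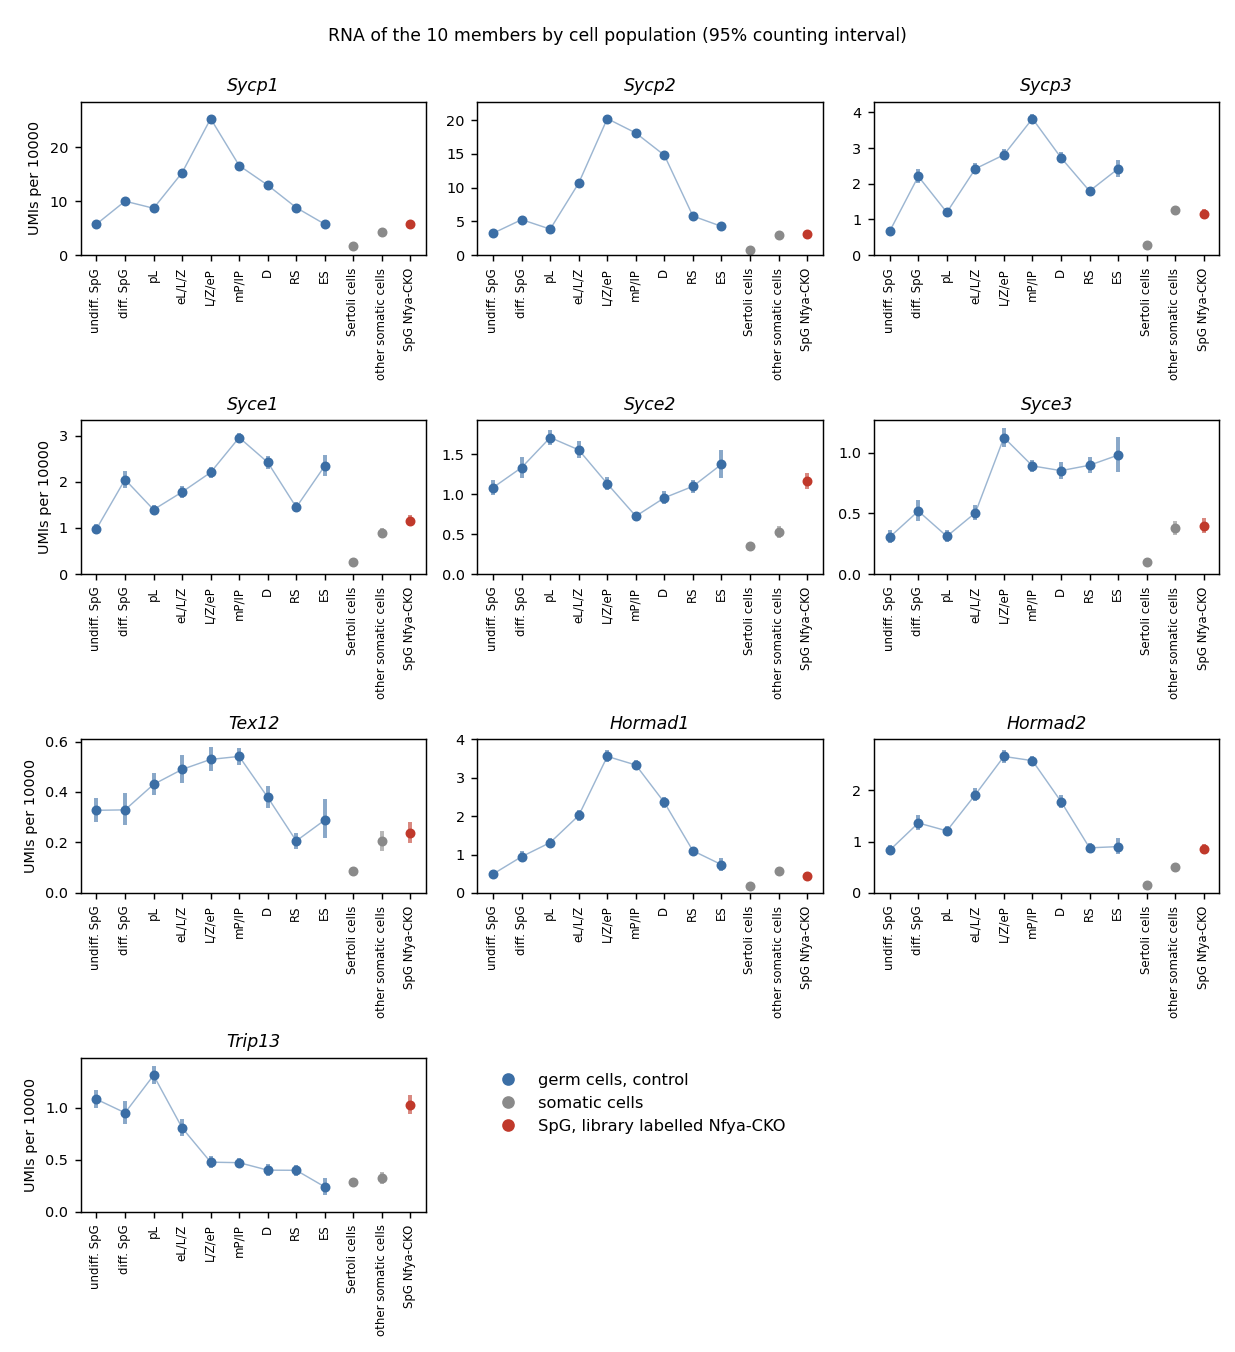
RNA of each member in UMIs per 10000 (vertical axis, from 0) in 12 cell populations (horizontal axis), with bars for the 95% counting interval and blue for control germ cells, grey for somatic cells and red for SpG of the library labelled Nfya-CKO. Sycp1 and Sycp2 peak in L/Z/eP, Sycp3 and Syce1 in mP/lP, and Trip13 in pL, while the intervals of Syce2 in pL and eL/L/Z overlap.

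Of the lateral element genes, Sycp2 stood at 3.25 UMIs per 10000 in undiff. SpG, 5.26 in diff. SpG, 3.85 in pL, 10.7 in eL/L/Z, 20.2 in L/Z/eP, 18.1 in mP/lP, 14.8 in D, 5.79 in RS and 4.26 in ES. Sertoli cells held 0.756, other somatic cells 2.97, the unknown nuclei 3.30 and the SpG of the library labelled Nfya-CKO 3.07. The steps that stood out were the one into leptotene, 2.77-fold from pL to eL/L/Z (95% interval 2.68 to 2.87), and the one out of meiosis, where RS held 0.391 of the level of D (0.381 to 0.402). On the log2 scale of value + 0.1, Sycp2 (log2 ratio 1.45) was the only member past 2-fold between pL and eL/L/Z, a step at which 5.17% of genes were at least 2-fold higher. Sycp3 was just short of it on that scale (0.96), with a plain ratio of 2.02 (1.89 to 2.16).

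Sycp3 was later. It stood at 0.673 in undiff. SpG, 2.21 in diff. SpG, 1.20 in pL, 2.42 in eL/L/Z, 2.81 in L/Z/eP, 3.82 in mP/lP, 2.73 in D, 1.79 in RS and 2.42 in ES. It was 1.36-fold higher in mP/lP than in L/Z/eP (1.31 to 1.41), while Sycp2 was 0.895 of its L/Z/eP level there (0.881 to 0.908). In the remaining populations it read 0.282 in Sertoli cells, 1.25 in other somatic cells, 1.17 in the unknown nuclei and 1.15 in SpG of the library labelled Nfya-CKO. Sycp3 was also 3.28-fold higher in diff. than in undiff. SpG (2.96 to 3.64), and Syce1 2.09-fold (1.90 to 2.299). On the log2 scale of value + 0.1, on which genes were counted, Sycp3 (log2 ratio 1.58) was past 2-fold and Syce1 (0.99) just short of it, against 10.2% of genes. This step goes with the move from mostly juvenile to mostly adult Cre/+ nuclei and with the higher ES markers in diff. SpG, and the part these play was not tested. In pL, mostly from 11 dpp, the 3 ES markers summed to 0.00649 and Sycp3 was 0.543 of its level in diff. SpG (0.4999 to 0.589).

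Sycp1, the transverse filament gene, stood at 5.74 in undiff. SpG, 9.99 in diff. SpG, 8.68 in pL, 15.3 in eL/L/Z, 25.3 in L/Z/eP, 16.6 in mP/lP, 12.95 in D, 8.80 in RS and 5.73 in ES. It was at its highest in L/Z/eP alone, and mP/lP held 0.656 of that level (0.647 to 0.665). Sertoli cells held 1.64, other somatic cells 4.29, the unknown nuclei 4.43 and SpG of the library labelled Nfya-CKO 5.80. Intervals of undiff. SpG, ES and the SpG of the library labelled Nfya-CKO overlapped, so these could not be ranked.

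The central element genes did not share 1 course. Syce1 resembled Sycp3, with 0.981 in undiff. SpG, 2.05 in diff. SpG, 1.40 in pL, 1.78 in eL/L/Z, 2.21 in L/Z/eP, 2.97 in mP/lP, 2.43 in D, 1.45 in RS and 2.35 in ES. Syce3 stood at 0.305, 0.519, 0.311 and 0.505 in the populations from undiff. SpG to eL/L/Z, at 1.13 in L/Z/eP, and at 0.891, 0.852, 0.897 and 0.981 from mP/lP to ES. It was the only member past 2-fold between eL/L/Z and L/Z/eP, by the plain ratio (2.23-fold, 2.003 to 2.48) and on the scale of value + 0.1, against 6.04% of genes, and it stayed within overlapping intervals from mP/lP to RS. Tex12, whose protein pairs with SYCE2, rested on few UMIs, with 0.327 in undiff. SpG, 0.329 in diff. SpG, 0.430 in pL, 0.489 in eL/L/Z, 0.529 in L/Z/eP, 0.541 in mP/lP, 0.379 in D, 0.206 in RS and 0.289 in ES. Its neighbours in the order of levels overlapped at 10 of 11 places, so most neighbouring ranks could not be told apart at this depth, while D held 0.7003 of the mP/lP level (0.626 to 0.781).

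Syce2 ran the other way. It stood at 1.08 in undiff. SpG, 1.34 in diff. SpG, 1.71 in pL, 1.56 in eL/L/Z, 1.13 in L/Z/eP, 0.726 in mP/lP, 0.956 in D, 1.10 in RS and 1.38 in ES. The mP/lP value, in the cells in which Syce1 and Tex12 were at their highest, was the lowest of its germ cell values and 0.641 of that in L/Z/eP (0.599 to 0.686). Within the SYCE2-TEX12 pair, the ratio of mP/lP to pL was therefore below 1 for Syce2 and above 1 for Tex12, whose intervals in pL (0.394 to 0.469) and mP/lP (0.515 to 0.568) did not overlap. In Sertoli cells, other somatic cells and the unknown nuclei, Syce1 read 0.271, 0.888 and 0.367, Syce2 0.348, 0.529 and 0.666, Syce3 0.102, 0.377 and 0.251, and Tex12 0.0849, 0.204 and 0.187.

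Of the HORMA genes, Hormad1 had the widest range of any member among germ cells, 7.21-fold between its lowest and its highest population. It stood at 0.493 in undiff. SpG, 0.944 in diff. SpG, 1.31 in pL, 2.02 in eL/L/Z, 3.56 in L/Z/eP, 3.33 in mP/lP, 2.36 in D, 1.10 in RS and 0.737 in ES. Unlike Sycp1, Sycp2, Sycp3, Syce1, Syce3 and Hormad2, it was higher in pL than in diff. SpG (1.39-fold, 1.25 to 1.55). Hormad2 stood at 0.832, 1.36, 1.21, 1.91, 2.66, 2.57, 1.78, 0.877 and 0.902 in the same order. Both were close to their highest level in mP/lP, at 93.7% and 96.9% of it, in cells in which synapsis is complete. In RS, Hormad1 held 0.466 of its level in D (0.437 to 0.497) and Hormad2 0.493 (0.459 to 0.530). On the log2 scale of value + 0.1, Sycp2 (log2 ratio -1.34) and Hormad1 (-1.04) were past 2-fold lower at this step, against 3.41% of genes, and Hormad2 (-0.94) was just short of it. Sertoli cells held 0.185 of Hormad1 and 0.162 of Hormad2, other somatic cells 0.566 and 0.501, and the unknown nuclei 0.923 and 0.818.

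Trip13 was the member of the earliest cells. It stood at 1.08 in undiff. SpG, 0.951 in diff. SpG, 1.31 in pL, 0.807 in eL/L/Z, 0.477 in L/Z/eP, 0.472 in mP/lP, 0.400 in D, 0.399 in RS and 0.239 in ES. L/Z/eP and mP/lP held 36.4% and 36.0% of the pL level, while Hormad1 and Hormad2 were at their highest there. Sertoli cells (0.285), other somatic cells (0.326), the unknown nuclei (0.351) and ES lay close together. TRIP13 also acts in the spindle checkpoint of mitosis, and undiff. SpG are mitotic cells.

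Some signal was present in somatic cells, where the meiosis-specific members are not known to be used. In Sertoli cells, with a median depth of 10904 UMIs, the members stood between 3.7% (Sycp2) and 21.7% (Trip13) of their highest germ cell level. Other somatic cells, with a median depth of 1525 UMIs, held 14.7% (Sycp2) to 37.8% (Tex12), and the 6 markers of mP/lP and D summed to 3.15 UMIs per 10000 in them, against 0.774 in Sertoli cells and 17.0 in mP/lP. In undiff. SpG all 10 members were at least 2-fold above Sertoli cells, against 20.2% of 13076 genes. Against other somatic cells, Sycp3 (0.673 against 1.25), Syce3 (0.305 against 0.377) and Hormad1 (0.493 against 0.566) were not above them. Free RNA was not tested as a source. Since values are shares of all RNA in a nucleus, and the median depth was 1633 UMIs in L/Z/eP but 6969 in mP/lP, a lower share does not show fewer molecules.

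The likeness of the courses was taken as Pearson's r of log2(value + 0.1) over the 12 named populations, which share libraries and depth, and is given as a description. Sycp1 and Hormad2 (r = 0.98), Sycp2 and Hormad1 (0.97), Sycp1 and Sycp2 (0.96), and Sycp3 and Syce1 (0.96) were the closest pairs. Between Trip13 and the others r ran from -0.26 (Syce3) to 0.59 (Syce2). Tex12 and Syce2 reached 0.63. Among 10412 genes with at least 0.5 UMIs per 10000 in some named population, the gene most like Sycp1 was Hfm1, a meiotic DNA helicase (r = 0.98), with Hormad2 second. The gene most like Hormad1 was Majin (0.98), which anchors telomeres to the nuclear envelope, and its partner Terb1 was close behind (0.97). Tex12 was most like Stag3 (0.97), a meiotic cohesin subunit. Sycp2 was most like Nol8 (0.99), Sycp3 most like Dvl1 (0.97), Syce1 most like Trim37 (0.98) and Syce3 most like Trim39 (0.96). Trip13 was most like Hat1 (0.98), a histone acetyltransferase that acts on newly made histones. For Syce2 the nearest gene, Gm20517, reached 0.94, and for Hormad2 it was Ccdc73 (0.98), with Sycp1 second. By Spearman correlation, only Majin, Hat1 and Gm20517 stayed first. Stag3 then ranked 2, Hfm1 10, Trim39 14, Nol8 17, Ccdc73 36, Trim37 53 and Dvl1 96.

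**Figure D2:**
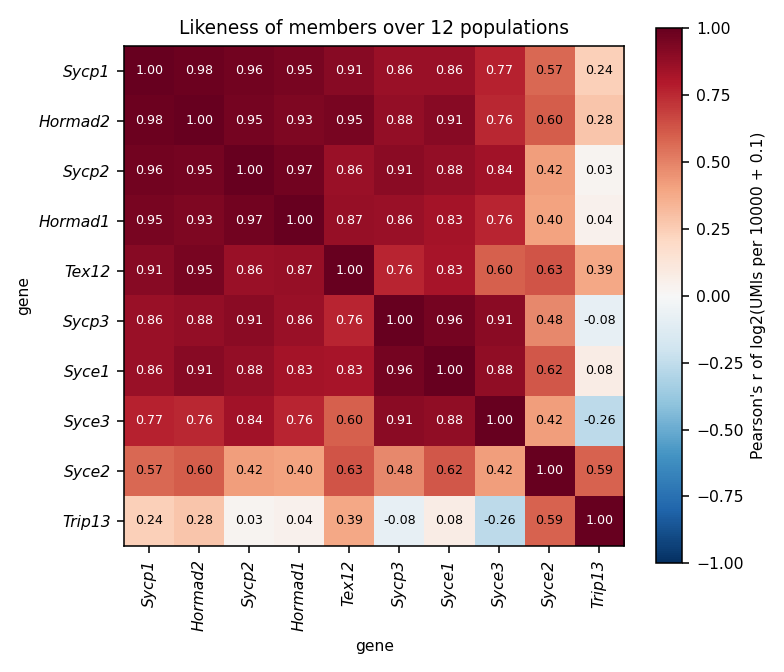
Pearson's r of log2(UMIs per 10000 + 0.1) between each pair of members over 12 named populations, in colour from -1 (blue) to 1 (red) with the value printed in each cell. Syce2 and Trip13 stand apart from the other 8 members.

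Other genes of synapsis and the chromosome axis (24 named for this, all found in the RNA matrix, some under older symbols) had their highest values in 7 of the germ cell populations. Of these, 3 were highest in L/Z/eP (Stag3, Smc1b and Terb1), 6 in mP/lP (Majin, Kash5, Spdya, Hsf2bp, Hei10 and Cntd1) and 3 in pL, populations whose shares of the genes reaching 0.5 are given above (Sycp2l, in pL, and Rad21l, in eL/L/Z, did not reach it). A further 4 were highest in eL/L/Z (Six6os1, Rad21l, Terb2 and Shoc1), against 4.25% of genes, 4 in undiff. SpG (17.6%), 3 in RS (18.9%) and 1 in diff. SpG (4.82%). Six6os1, another central element gene, was highest in eL/L/Z at 8.54 and had values of 7.11 in L/Z/eP, then 3.33 in mP/lP. Smc1b, a meiotic cohesin gene, was highest in L/Z/eP at 8.06. Fkbp6, needed for synapsis and for piRNA production, was highest in undiff. SpG at 8.95, and Skp1a, part of an SCF ubiquitin ligase, in pL at 6.95. Between undiff. SpG and L/Z/eP, 7 of the 23 that passed the low-value filter were at least 2-fold higher on the scale of value + 0.1 (12.8% of genes) and 1, Fkbp6, at least 2-fold lower (15.2%), with a median log2 ratio of 0.63. Iho1 (0.571 against 0.244) and Hsf2bp (0.623 against 0.272) were past 2-fold by the plain ratio alone.

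Chromatin at 8 of the 10 genes was at least 2-fold more accessible in each control germ cell population than in Sertoli cells, already in undiff. SpG. Syce2 was above Sertoli cells in each of them by less (1.30-fold to 1.73-fold), and Trip13 ran from 0.794 to 1.19 of them. Over the 9 control germ cell populations the lowest ratio to Sertoli cells was 2.43 for Hormad1, 2.74 for Hormad2, 2.91 for Tex12 and 3.10 to 3.47 for Sycp1, Sycp2, Sycp3, Syce1 and Syce3. scATAC-seq values are given per 1000000 of the signal on nuclear genes, since mitochondrial genes held 31.2% (pL) to 64.5% (other somatic cells) of the total. The study's methods take promoter accessibility over 200 bp on either side of a start site, but do not say that the matrix was made so, and the number of reads behind a value is unknown. In undiff. SpG, Sycp1, Sycp2, Sycp3, Syce1, Syce3, Tex12, Hormad1 and Hormad2 were 2.43-fold (Hormad1) to 3.73-fold (Syce3) above Sertoli cells. 24.7% of 30223 nuclear genes were at least 2-fold higher. Syce2 (61.0 against 46.9, 1.30-fold) and Trip13 (77.4 against 65.3, 1.19-fold) were not past 2-fold. In mP/lP the same 8 were 3.78-fold (Syce1) to 6.67-fold (Sycp2) above Sertoli cells, a comparison in which 30.1% of genes were at least 2-fold higher, and Trip13 was 1.10-fold above. Against other somatic cells, undiff. SpG were past 2-fold for 6 members, against 16.7% of genes. Sycp3 (88.0 against 56.1, 1.57-fold) and Hormad1 (21.3 against 17.6, 1.21-fold) then joined Syce2 and Trip13 below 2-fold.

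**Figure D3:**
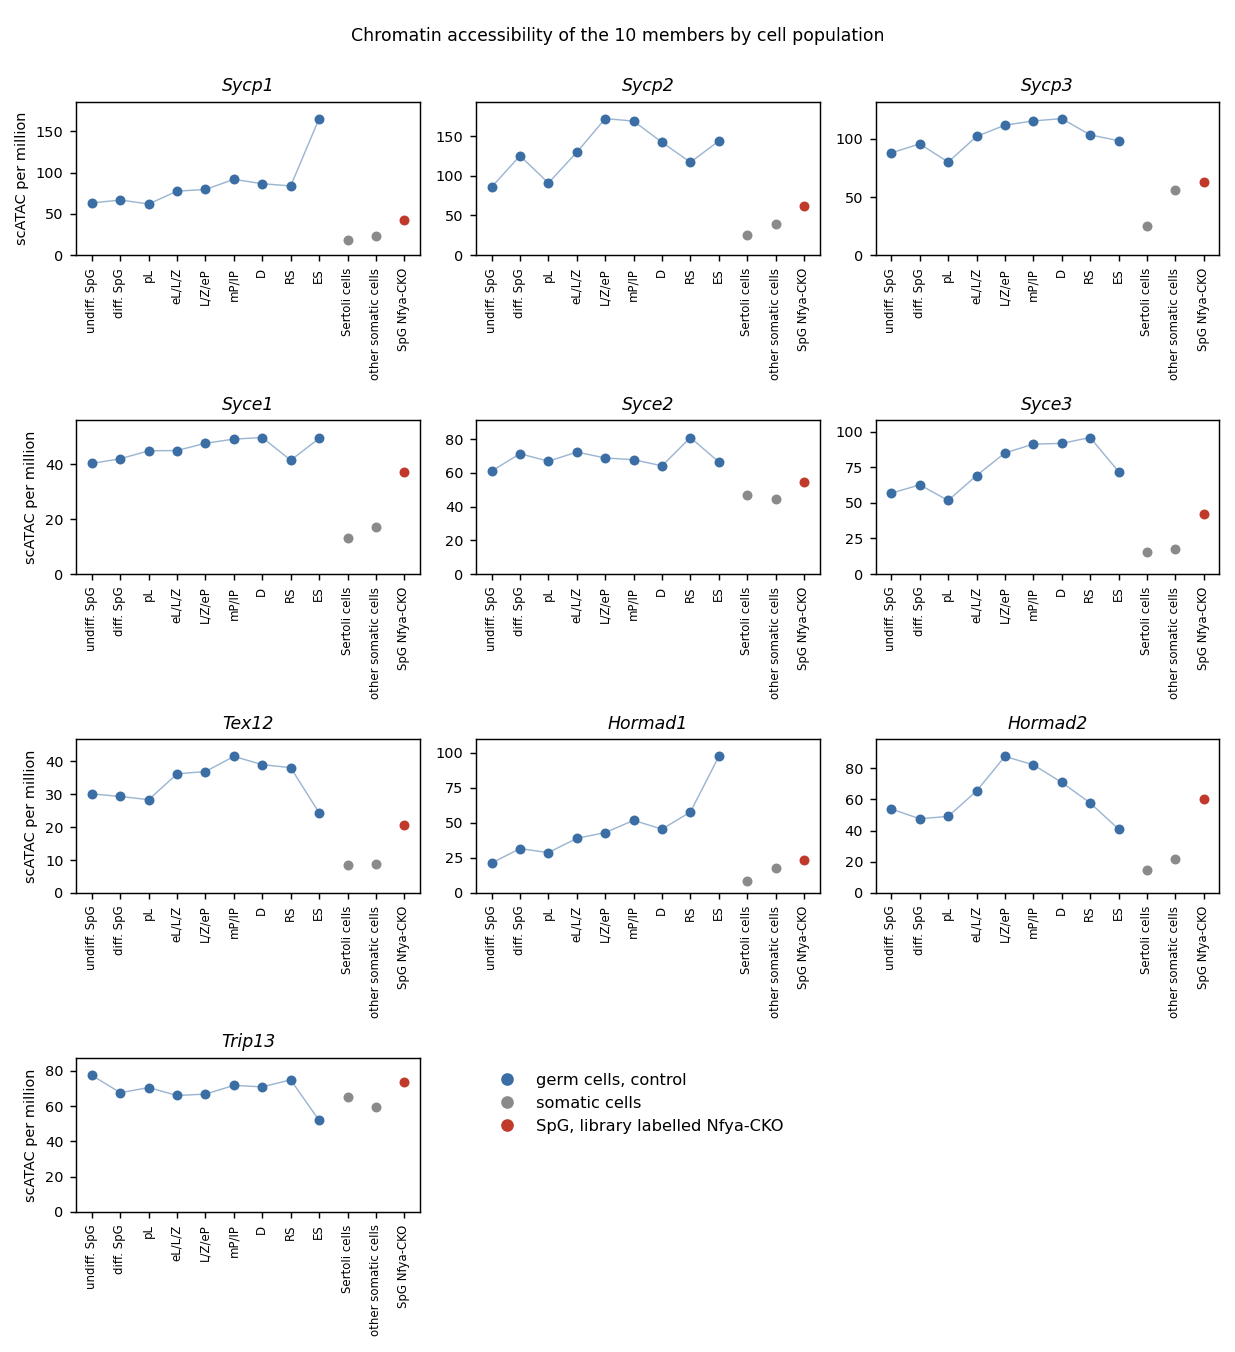
scATAC-seq signal of each member per 1000000 of the signal on nuclear genes (vertical axis, from 0) in 12 cell populations (horizontal axis), with no error bars because the reads behind a value are unknown. In every panel but that of Trip13 the grey somatic points lie below all control germ cells, and the points of Trip13 span 51.8 to 77.4.

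Along the germ cells, accessibility varied less than RNA. Sycp2 stood at 85.7 per 1000000 in undiff. SpG, 125 in diff. SpG, 90.9 in pL, 130 in eL/L/Z, 172 in L/Z/eP, 169 in mP/lP, 142 in D, 117 in RS and 144 in ES, the last resting on 124 nuclei. Hormad1 ran from 21.3 in undiff. SpG through 43.0 in L/Z/eP to 97.4 in ES. Between undiff. SpG and L/Z/eP these 2 were at least 2-fold higher (2.01-fold and 2.02-fold), against 9.33% of genes. Trip13, at 77.4 in undiff. SpG and 66.8 in L/Z/eP, was the only member lower in L/Z/eP, against 46.5% of genes. These directions rest on the scale. With mitochondrial genes kept in the sum (40.6% of it in undiff. SpG and 63.8% in L/Z/eP), no member was 2-fold higher and 8 of 10 were lower in L/Z/eP, all but Sycp2 (1.22-fold) and Hormad1 (1.23-fold). Over the 9 control germ cell populations, Pearson's r between log2 RNA and log2 accessibility was 0.83 for Sycp2, 0.81 for Sycp3, 0.83 for Syce1, 0.88 for Syce3, 0.84 for Hormad2, 0.51 for Trip13, 0.35 for Tex12, 0.18 for Hormad1, 0.14 for Syce2 and -0.17 for Sycp1. With mitochondrial genes kept in the sum, r ran from -0.67 (Sycp1) to 0.65 (Trip13), with 0.11 for Sycp2, -0.23 for Sycp3 and -0.35 for Syce1, so these values rest on the scale too. The points share libraries, and for Sycp1 and Hormad1 ES had the highest accessibility (165 and 97.4) beside a low RNA level.

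SpG of the library labelled Nfya-CKO were set against control undiff. SpG, to ask whether these meiotic genes differ when NF-Y is targeted. None of the 10 members was 2-fold apart in RNA, against 4.76% of 13954 genes at least 2-fold higher and 3.40% at least 2-fold lower. Sycp1 stood at 5.80 against 5.74 (ratio 1.01, 0.970 to 1.05), Sycp2 at 3.07 against 3.25 (0.947, 0.896 to 0.999), Hormad2 at 0.853 against 0.832 (1.03, 0.922 to 1.14) and Trip13 at 1.03 against 1.08 (0.9497, 0.864 to 1.04). Sycp3 was 1.15 against 0.673 (1.71, 1.54 to 1.90), the member farthest above control, and Tex12 was 0.238 against 0.327 (0.727, 0.602 to 0.877), the farthest below. Syce1 stood at 1.15 against 0.981 (1.18), Syce2 at 1.16 against 1.08 (1.07), Syce3 at 0.399 against 0.305 (1.31) and Hormad1 at 0.447 against 0.493 (0.907). The intervals cover counting error only, and a difference between libraries of this size has no replicate check. The sums of somatic markers moved with this comparison (48.4 against 0.318 for other somatic cells and 25.9 against 3.46 for Sertoli cells), and Sycp3 read 1.25 in other somatic cells. In SpG of the library labelled Nfya-CKO these sums were mostly Insl3 (39.8) and Clu (22.8), while Sox9 stood at 0.820 against 0.531. Their part in these ratios was not tested.

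The ratios moved with the control. Undiff. SpG were mostly juvenile, with 102 of 1292 nuclei from the adult Cre/+ library, while diff. SpG were mostly adult but differ in stage. SpG of the library labelled Nfya-CKO are named as undifferentiated in the deposited matrices. The 5 undiff. SpG markers summed to 23.1 in them, 31.4 in undiff. SpG and 7.67 in diff. SpG, while the 3 diff. SpG markers summed to 2.23, 2.73 and 5.19. Single markers went both ways against undiff. SpG. Zbtb16 (4.15 against 8.74), Sall4 (2.08 against 4.88) and Ccnd2 (4.67 against 10.8) were lower, and Uchl1 (11.0 against 5.88) and Gfra1 (1.20 against 1.08) higher. Of the diff. SpG markers, Stra8 was lower (0.969 against 2.05), and Kit (1.08 against 0.548) and Dmrtb1 (0.173 against 0.133) higher. By the deposited name, a comparison with diff. SpG or pL is also one across stages. Against diff. SpG, ratios in the library labelled Nfya-CKO were 0.474 (Hormad1, 0.410 to 0.548), 0.521 (Sycp3, 0.475 to 0.571), 0.562 (Syce1), 0.580 (Sycp1) and 0.584 (Sycp2). They were 0.626 (Hormad2), 0.723 (Tex12), 0.769 (Syce3) and 0.870 (Syce2), and Trip13 stood at 1.08 (0.958 to 1.22). Of these, Sycp3, Syce1 and Syce3 lay above undiff. SpG and below diff. SpG beyond counting error. None passed 2-fold on the log2 scale of value + 0.1, against 10.9% of genes at least 2-fold lower, and the median log2 ratio was -0.69 over the members and 0.04 over all genes. The ES markers, at 5.35 in diff. SpG and 0.0296 in the library labelled Nfya-CKO, moved with this comparison. So did those of mP/lP and D (3.41 and 1.18) and of other somatic cells (1.34 and 48.4), and the part of these in it was not tested. Against pL, Hormad1 alone was at least 2-fold lower (0.447 against 1.31, ratio 0.341, 0.303 to 0.383), against 5.37% of genes. The 4 pL markers (1.505 against 7.45), the Sertoli markers (25.9 against 5.16) and those of other somatic cells (48.4 against 0.314) moved with it, and their part was not tested.

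Accessibility was lower than in undiff. SpG at 8 of 10 members, against 41.3% of 29939 nuclear genes with a ratio under 1. Among the 13183 genes with control values in the range of the members, the share was 51.1%. The ratio was 0.678 for Sycp1 (42.9 against 63.2 per 1000000), 0.686 for Tex12 (20.7 against 30.1), 0.714 for Sycp3 (62.8 against 88.0), 0.721 for Sycp2 (61.8 against 85.7) and 0.737 for Syce3 (41.9 against 56.8). It was 0.890 for Syce2, 0.920 for Syce1 and 0.953 for Trip13. Hormad1 (23.8 against 21.3, 1.12) and Hormad2 (60.1 against 53.9, 1.11) were above control. The median ratio was 0.813 over the members, 1.08 over all nuclear genes and 0.995 over those in the range of the members. The somatic RNA markers, given above, move with this comparison too. All 10 members were less accessible in Sertoli cells and in other somatic cells than in undiff. SpG (Sycp1 at 17.9 and 23.1 against 63.2), and the part of somatic signal in these ratios was not tested. Sycp1, Sycp2 and Tex12, at 0.678 to 0.721, had RNA ratios of 1.01, 0.947 and 0.727 in the same comparison, and Sycp3 had one of 1.71.

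Against diff. SpG, 8 of 10 members had a ratio under 1, not the same 8, against 44.6% of genes and 64.4% of the 10001 genes in the range of the members. Sycp2 was lowest at 0.494 (61.8 against 125) and alone at least 2-fold lower, against 8% of genes. Sycp1 (0.642), Sycp3 (0.657), Syce3 (0.668) and Tex12 (0.704) were below 1 against both controls, while Hormad1 was 0.754 against diff. SpG and 1.12 against undiff. SpG, Trip13 was 1.09 and 0.953, and Hormad2 was above both (1.26 and 1.11). With mitochondrial genes kept in the sum, Trip13 was 0.907 against diff. SpG, and Hormad2 (1.05) alone stayed above 1. The mean TSS enrichment of a nucleus, a measure of signal over background, was 7.99 in the SpG of the library labelled Nfya-CKO, 12.7 in undiff. SpG and 15.1 in diff. SpG, and its part in these ratios was not tested. The 8 members that were past 2-fold above Sertoli cells in undiff. SpG were so in the library labelled Nfya-CKO too, at 2.40-fold (Sycp1) to 4.02-fold (Hormad2), against 33.6% of genes. Of the 24 other genes of synapsis and the axis, 16 had a ratio under 1 to undiff. SpG, with a median of 0.946, beside the 41.3% of nuclear genes and 51.1% of those in the range of the members. Shoc1, at a low signal of 1.16 against 2.41, was alone at least 2-fold lower (0.481), against 2.56% of genes. Against diff. SpG, Smc1b (34.2 against 68.6, 0.498) and Iho1 (2.83 against 5.67, 0.4998) were at least 2-fold lower, and Sycp2l (21.8 against 7.85, 2.77-fold) was at least 2-fold higher, as were 21.8% of genes.

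**Figure D4:**
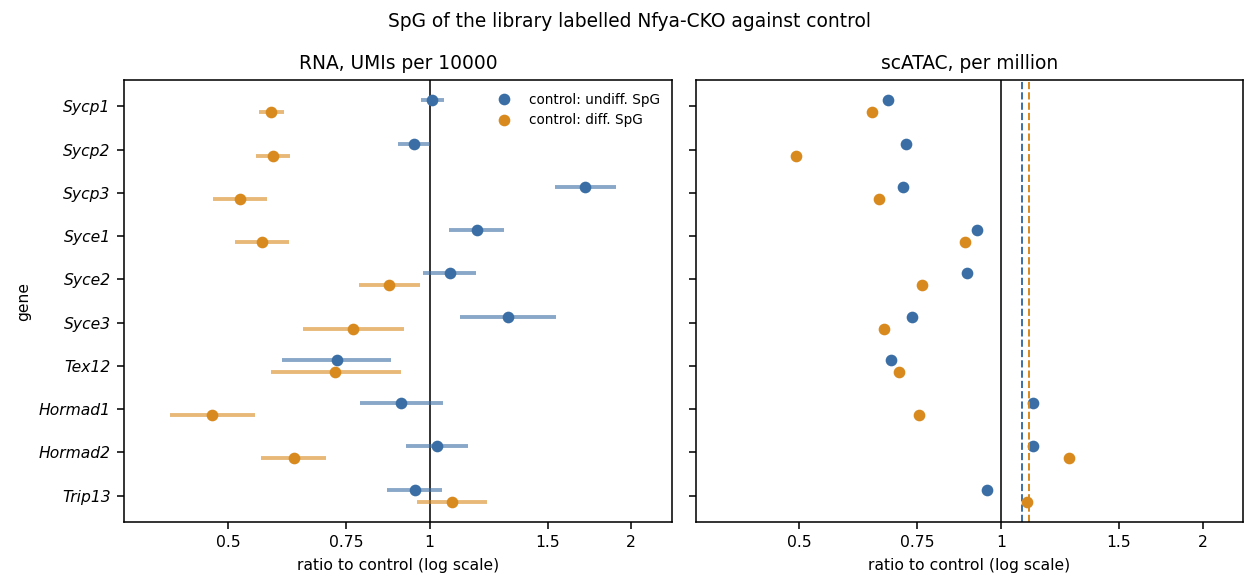
Ratio of SpG of the library labelled Nfya-CKO to undiff. SpG (blue) and diff. SpG (orange) for RNA (left, bars are 95% counting intervals) and scATAC-seq (right, dashed lines are the medians of all nuclear genes), on a log2 horizontal axis. RNA ratios to undiff. SpG run from 0.727 (Tex12) to 1.71 (Sycp3), with 4 of 10 below 1. scATAC-seq ratios to undiff. SpG run from 0.678 (Sycp1) to 1.12 (Hormad1), with 8 of 10 below 1.

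Of the other genes of synapsis and the axis, none of the 23 tested was 2-fold apart in RNA from undiff. SpG on the log2 scale of value + 0.1. By the plain ratio, Fkbp6 (4.44 against 8.95, 0.496), Spdya (0.0682 against 0.164, 0.415) and Cntd1 (0.0701 against 0.157, 0.446) were past 2-fold lower. Their median log2 ratio was -0.26, against 0.02 over the members and 0.04 over all genes. Against diff. SpG, 7 were at least 2-fold lower on the scale of value + 0.1, against 10.9% of genes. Rec8, a meiotic cohesin subunit, stood at 0.0740 against 0.457 UMIs per 10000 (ratio 0.162, 0.119 to 0.218). The other cohesin genes listed, Stag3 (0.792), Smc1b (0.585), Rad21l (1.04) and Smc3 (1.14), were not 2-fold apart. Of the genes that tether telomeres to the nuclear envelope and move them, Terb1 stood at 0.301 against 0.734 (0.411), Majin at 0.248 against 0.822 (0.302), Kash5 at 0.206 against 0.799 (0.258) and Spdya at 0.0682 against 0.523 (0.130). Terb2 (0.245 against 0.373, 0.657) and Sun1 (0.695 against 1.24, 0.561), of the same group, were not past 2-fold. Hsf2bp, which acts in recombination, stood at 0.144 against 0.478 (0.301), and Cntd1, needed for crossovers, at 0.0701 against 0.625 (0.112). The ES markers (0.0296 against 5.35) and those of mP/lP and D (1.18 against 3.41) moved the same way in this comparison, and their part was not tested. Against pL, 6 were at least 2-fold lower on the scale of value + 0.1 (5.37% of genes), with plain ratios of 0.120 for Spdya, 0.238 for Majin, 0.248 for Rec8, 0.283 for Shoc1, 0.343 for Iho1 and 0.473 for Six6os1. The pL and somatic markers given above for Hormad1 moved with this comparison too. Cntd1 (0.316) and Terb1 (0.437) against pL, and Shoc1 (0.498) against diff. SpG, were past 2-fold by the plain ratio alone.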

How the data were processed

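Nuclei of mouse testes were read by scRNA-seq and scATAC-seq together (BD Rhapsody), with 1 library per condition and assay (10 libraries). The authors aligned RNA reads to mm10 with STAR 2.7.10b, kept unique reads, collapsed UMIs and, with Seurat 5.2.1, required 500 genes and under 5% mitochondrial UMIs per nucleus. They removed doublets with DoubletFinder. Fragments were aligned with BWA 0.7.12, shifted for transposase insertion and filtered with ArchR 1.0.3 (1000 fragments, TSS enrichment of 4). Tool names and versions are from the submitters' processing notes and the methods. The authors deposited the UMI and fragment counts of each cell, its percent of mitochondrial UMIs, and its TSS enrichment, a ratio of coverage at start sites to flanking coverage. They deposited other, pooled values in 1 matrix per assay, 1 value per gene and population, on a natural log scale. 20 further columns were not used.

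Values were turned back as exp(value) - 1 with numpy 2.4.6, scipy 1.17.1 and pandas 2.3.3 under Python 3.11.15. The smallest RNA value above 0 was that of 1 UMI in the deepest nucleus in 11 of 13 populations (within 1%), so a value was taken as the mean over nuclei. In mP/lP (3.17e-05 against 2.54e-05) and D (6.19e-05 against 5.14e-05) it was larger, and the same reading was assumed. Effective UMIs, the value divided by that of 1 UMI, gave exact Poisson intervals for levels and exact binomial ones for ratios. The intervals and the 2-fold counts were tested on simulated data, in which lowered genes were recovered less fully than raised ones. The simulation drew counts from a single mean per gene and population, as the intervals assume. It therefore could not test variation between nuclei or libraries.

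Log2 ratios used a pseudocount of 0.1 and genes whose mean over both populations reached 0.05; the pseudocount understates the change of low genes, so a low gene can be 2-fold apart by the plain ratio and not be counted. scATAC values were scaled to 1000000 over nuclear genes, with no pseudocount. Genes were counted by a 2-fold size alone, beside the share of all genes, and with 1 library per condition there is no p-value. Members and gene lists were chosen with earlier results of these data known. All members are named. Of the 24 other genes, values are given for the 4 with the highest germ cell level. They are also given for those 2-fold apart in SpG of the library labelled Nfya-CKO (RNA against 3 controls, scATAC against undiff. and diff. SpG). For RNA against diff. SpG, the remaining cohesin and telomere genes are added. The 3 genes most like a member were found among genes reaching 0.5. Promoter windows and coordinates are RefSeq's for GRCm38.p6, the build of mm10. Scaling, pseudocounts, filters, thresholds and controls were varied.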

Additional observations from a re-analysis of the deposited data

How the results depend on the processing

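No paired analysis was possible because each condition is 1 library, and leaving out a library was not possible in values pooled by the authors. A pseudocount of 0.01 put 2 members past 2-fold higher in diff. against undiff. SpG and 2 in eL/L/Z against pL. A pseudocount of 0.5 left 0 higher in L/Z/eP against eL/L/Z, 1 lower in RS against D and 0 lower in L/Z/eP against undiff. SpG. With a 1.5-fold threshold, 7 members were higher in diff. against undiff. SpG, 2 lower in pL against diff. SpG, 4 higher and 1 lower in eL/L/Z against pL, 4 higher and 1 lower in L/Z/eP against eL/L/Z, 1 lower in mP/lP against L/Z/eP, 5 lower in RS against D, 1 higher and 1 lower in ES against RS, and 1 higher for SpG of the library labelled Nfya-CKO against undiff. SpG. With a 3-fold threshold on the scale of value + 0.1, 0 were higher in diff. against undiff. SpG, in eL/L/Z against pL and in L/Z/eP against eL/L/Z, and 0 lower in RS against D and in L/Z/eP against undiff. SpG. Shares of all genes were taken at 2-fold only, so the counts at 1.5-fold and 3-fold describe the members alone. By Spearman correlation, 3 of the 10 most like genes stayed first. Scaling without mitochondrial genes and the 100 highest genes moved single log2 ratios by at most 0.04, and all 10 members kept their highest germ cell population. The scATAC ratio of Hormad1 to control was 0.754 against diff. SpG and 0.900 against the mean of both controls, and that of Trip13 1.09 and 1.02, so these directions depend on the control. That of Trip13 rests on the scale too. With mitochondrial genes kept in the sum it was 0.907 against diff. SpG and 0.867 against undiff. SpG. With mitochondrial genes kept in the sum, 0 members were at least 2-fold more accessible in L/Z/eP than in undiff. SpG (0 also with a pseudocount of 1) and 8 had a ratio under 1, with 0.768 for Sycp1, 0.776 for Sycp3, 0.722 for Syce1, 0.688 for Syce2, 0.914 for Syce3, 0.748 for Tex12 and 0.993 for Hormad2. The same scaling put Trip13 at 0.889 in mP/lP against Sertoli cells. The count of 8 members with lower accessibility in SpG of the library labelled Nfya-CKO than in undiff. SpG was the same under each alternative run. So was the count of 8 at least 2-fold above Sertoli cells in undiff. SpG and in mP/lP. Against diff. SpG the first count was 8 as well, but Trip13 also fell below 1 with mitochondrial genes kept in the sum. Division by the median ratio of genes in the range of the members was chosen after seeing the data. The spread between libraries is not known.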
